A study of Mus musculus with 6 samples.

Results

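The 4 Janus kinases Jak1, Jak2, Jak3 and Tyk2 and the STAT factors Stat2, Stat3, Stat5a, Stat5b and Stat6 were described in Ba/F3 cells, a mouse line labelled as pro-B, that carried human calreticulin. The members are these 9 genes by symbol, and each had exactly 1 of the 12615 rows of the deposited table. One group carried unmutated calreticulin (hCALR) and the other carried calreticulin with the type 1 deletion (hCALR-del52), a mutation known from myeloproliferative neoplasms. Cells of both groups were transduced with the retroviral vector pMSCV-IRES-GFP and were grown with interleukin-3 (IL-3) at 1 ng/ml, so that every value below belongs to cells under cytokine. Each group had 3 replicates, 6 samples in all, and the labels do not say whether these were separate cultures or transductions, or whether a line was 1 clone. The construct and the line that carried it cannot be told apart in this design.

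Janus kinases are tyrosine kinases that sit on the cytoplasmic tails of cytokine receptors, which have no kinase activity of their own. When a cytokine brings the receptor chains together, the kinases phosphorylate each other and the receptor, STAT proteins dock on the phosphorylated tails and are phosphorylated in turn, and the STAT dimers enter the nucleus and bind target genes. In Ba/F3 cells IL-3 acts mainly through JAK2, bound to the common beta chain, and through STAT5, while JAK1 serves receptors with the common gamma chain or gp130 and the interferon receptors. These proteins are switched on by phosphorylation, which RNA levels do not measure.

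Levels are FPKM, read fragments counted per kilobase of transcript and scaled to the number of mapped fragments, and allow genes of different length to be set side by side. A single FPKM per group stood in the authors' deposited table, pooled over the replicates, so that no SD or interval belongs to any value below, and how deeply each sample was sequenced is unknown. Where a pair of levels is given, hCALR comes first and hCALR-del52 second. The test is the authors' own Cuffdiff comparison over their genes, and a gene was called at their Benjamini-Hochberg q under 0.05. Of all rows 1.84% were called by that rule, with 0.872% up and 0.967% down under the deletion. The log2 ratio was taken with a pseudocount of 1, and its median over 10076 symbols was -0.01. Of 12 pro-B and pre-B cell markers, Cd79b alone had a row, at 8.64 and 5.09 FPKM, so that the labelled cell type could not be checked well. The other 11 had no row in a table from which genes with low expression and genes that varied strongly had been removed.

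Of the 9 members, Jak1 fell and the other 8 were not called. Jak1 was the most abundant member in both groups, with 518 and 141 FPKM. The kinase RNA was thus 3.67-fold lower in the mutant group. The authors' deposited table gave a log2 fold change of -1.88 with p = 0.00025 and q = 0.00665. Jak3 lay on the other side, at 20.2 and 37.6 FPKM, but its q of 0.17 did not pass. The remaining 7 members had log2 ratios between -0.23 and 0.22, and their smallest p in the authors' deposited table was 0.61. Of all 9, 6 lay below 0 and 3 above, with a median of -0.14, while 52.1% of the symbols in the table lay below 0.

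**Figure D1:**
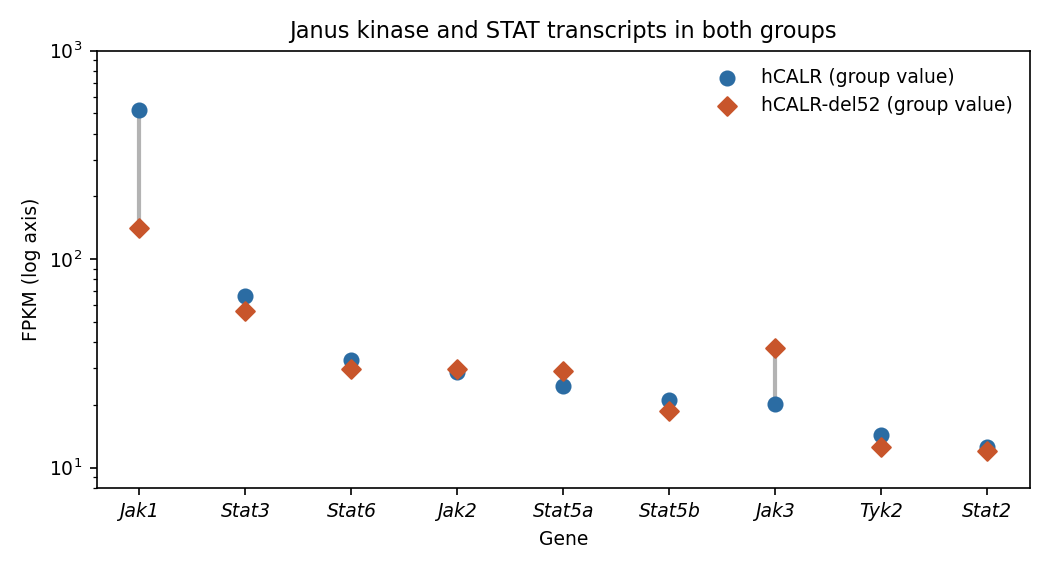
FPKM of the 9 members (log axis), with 1 group value for hCALR (circles) and 1 for hCALR-del52 cells (diamonds), ordered by the level in hCALR cells; no error bars exist for these values. Jak1 dropped from 518 to 141 FPKM, Jak3 was at 20.2 and 37.6 FPKM, and the symbols of the other genes lie close together.

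Among the Janus kinases, Jak1 (ENSMUSG00000028530, protein coding) stands in a row that spans 101068983 to 101265282 of chromosome 4 on the minus strand in mm10. The row is 196 kb long, longer than the 113 kb of the annotated Jak1 gene, because it also covers Raver2, an RNA-binding protein gene on the opposite strand. Raver2 had no row of its own, and both genes overlap by 4 bases at their ends. Whether reads of Raver2 entered the 518 and 141 FPKM cannot be told from the table. None of the 50-base windows of the longest Jak1 coding transcript occurred in transcripts of other annotated genes. In hCALR cells 197 rows had a higher FPKM than Jak1, and in hCALR-del52 cells 704 did. Of 1045 rows with at least 100 FPKM in hCALR cells, 6 were called lower (0.574%), and 3 had a log2 ratio under the -1.87 of Jak1. These were Tcrg-C1, Trbv13-2 and a row without a symbol, of which Trbv13-2 was called. Jak1 had a test statistic of -2.33 in the authors' deposited table, where 88 of the 228 called rows with a statistic had a smaller absolute value.

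**Figure D2:**
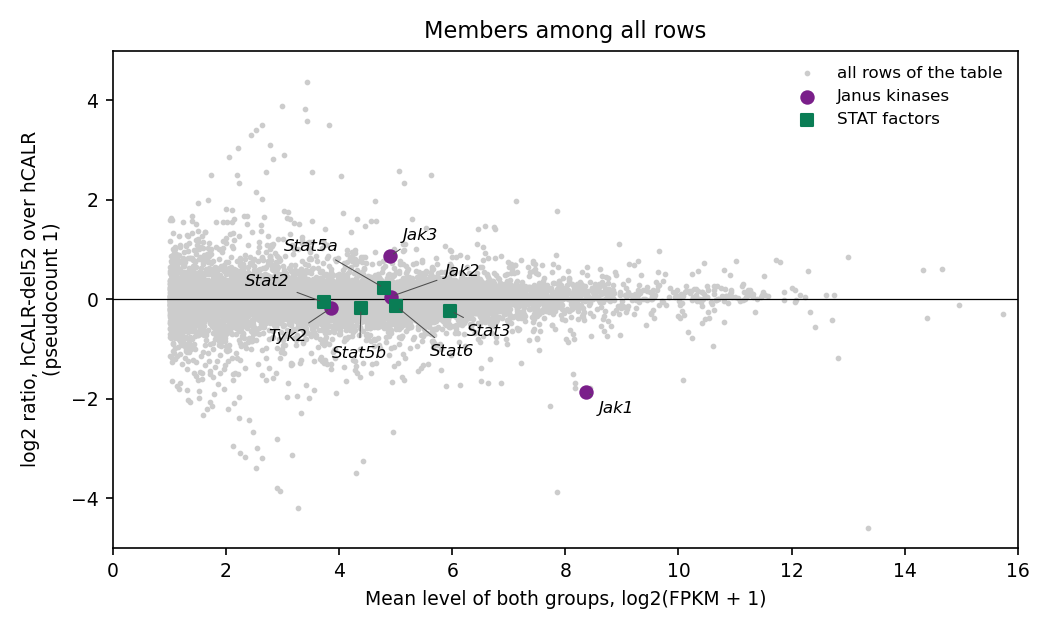
Log2 ratio of hCALR-del52 over hCALR (pseudocount 1) against the mean level of both groups, log2(FPKM + 1), for all rows (grey), the Janus kinases (circles) and the STAT factors (squares); 7 rows beyond 5 on the ratio axis are not drawn. Jak1 lies at -1.87, below nearly all rows of its level, Jak3 lies at 0.87, and the other members lie within 0.23 of 0.

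The bases before the annotated starts of Jak1 and Jak3 are shown because these kinases had the largest differences among the members, in opposite directions. They come from RefSeq on GRCm38.p6 and stop where an annotated exon begins. Capitals mark, in Jak1, a CCAAT box and the cyclic AMP response element TGACGTCA, and, in Jak3, a GC box read on the opposite strand.
Jak1, chr4:101265283-101265473, minus strand: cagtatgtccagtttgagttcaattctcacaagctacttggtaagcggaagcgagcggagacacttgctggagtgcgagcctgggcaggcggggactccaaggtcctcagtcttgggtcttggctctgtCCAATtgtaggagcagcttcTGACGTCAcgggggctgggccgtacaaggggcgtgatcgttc
Jak3, chr8:71676133-71676295, plus strand: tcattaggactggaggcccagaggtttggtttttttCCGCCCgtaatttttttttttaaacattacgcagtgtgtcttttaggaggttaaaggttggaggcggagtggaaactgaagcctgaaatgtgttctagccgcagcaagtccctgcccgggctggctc
The windows searched, on both strands, were the 250 bases before each start. Among 11 such windows of the 9 members, TGACGTCA occurred in that of Jak1 alone, against 1.55% of 32851 promoter windows of all genes. The GC box GGGCGG occurred in windows of 8 members, against 32.7% of all windows, and CCAAT in those of 4 members, against 33.8%. The STAT motif TTCNNNGAA was found in none of the 11 windows, against 7.02% of all, and TATAAA in none, against 12.4%. The STAT motif with a spacer of 4 bases was found in 1 window, that of Stat2, against 5.85% of all. A match of letters is a description and shows no binding.

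Jak2, the kinase of the IL-3 and erythropoietin receptors (chromosome 19, 29251828 to 29313080, plus strand), was at 28.6 and 29.8 FPKM. Its log2 fold change in the authors' deposited table was 0.06 with p = 0.83. Jak3 is the partner of the common gamma chain in lymphocytes, and its row spans 71674957 to 71690828 of chromosome 8 on the plus strand. Its log2 fold change in the authors' deposited table was 0.90 with p = 0.014. The level was thus 1.86-fold higher in the mutant group, a difference that the adjusted test did not call. The row of Jak3 also carries the identifier of Insl3, a hormone gene that lies within its 3' part on the same strand. Of the 50-base windows of the longest Jak3 coding transcript, 8.94% also occurred in Insl3 transcripts, so that the row does not measure Jak3 alone. Tyk2, a kinase of interferon and IL-12 family receptors (chromosome 9, 21074168 to 21131609, minus strand), was at 14.4 and 12.6 FPKM with p = 0.71 in the authors' deposited table. Its row also covers most of Raver1, which has a row of its own.

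The make-up of the kinase family differed between the groups. The FPKM of all 4 kinases summed to 581 and 221, a 2.63-fold difference, while the 3 kinases other than Jak1 summed to 63.1 and 79.95 FPKM. Jak1 made up 89.1% of the summed kinase FPKM in the first group and 63.8% in the second. The share of Jak3 was 3.47% and 17.0%, and that of Jak2 was 4.92% and 13.5%. Jak1 RNA stood at 18.1 times the level of Jak2 in hCALR cells and at 4.74 times in hCALR-del52 cells. Among the 4 kinases Jak1 alone passed the test, and a share also moves when another gene of the sum does. Whether the fold of Jak1 differed from that of another kinase was not tested.

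**Figure D3:**
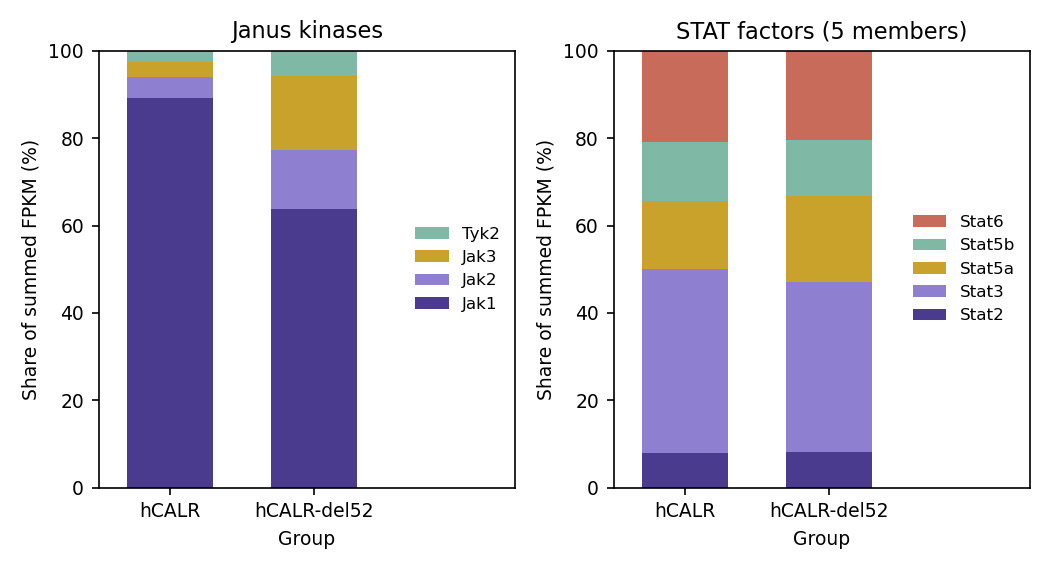
Share of each gene in the summed FPKM of the 4 Janus kinases (left) and of the 5 STAT factors described here (right), in percent, with 1 bar per group and no error. Jak1 takes 89.1% of the kinase sum in hCALR and 63.8% in hCALR-del52 cells, while Stat3 takes 42.1% and 38.8% of the STAT sum.

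None of the 5 STAT factors was called by the Cuffdiff test or had an unadjusted p under 0.05. Their FPKM summed to 158 and 146. Stat3, the factor downstream of gp130 and the granulocyte colony-stimulating factor receptor, was the most abundant of the 5 in both groups, at 66.5 and 56.6 FPKM. Stat6, the factor of IL-4 and IL-13 signalling (chromosome 10, 127642986 to 127701049, plus strand), was at 32.9 and 29.7 FPKM. The span of its row also covers Nab2 and Nemp1, which have rows of their own. Stat5a was at 24.7 and 29.0 FPKM. The level of Stat5b was 21.2 and 18.7 FPKM. Stat2, a factor of the response to type I interferon (chromosome 10, 128270508 to 128292849, plus strand), was the least abundant member in both groups, at 12.5 and 12.0 FPKM. In the authors' deposited table the log2 fold changes of these 5 factors lay between -0.23 for Stat3 and 0.23 for Stat5a, with p between 0.61 for Stat5b and 0.80 for Stat2.

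In hCALR cells Jak1 was followed by Stat3, Stat6, Jak2, Stat5a, Stat5b, Jak3, Tyk2 and Stat2. In hCALR-del52 cells Jak3 stood in place 3, ahead of Jak2, Stat6, Stat5a and Stat5b. Neighbours in this order, such as Jak2 at 29.8 and Stat6 at 29.7 FPKM, cannot be ranked against replicate spread, since the table gives none. In hCALR cells Jak1 lay above 98.4% of rows, Stat3 above 86.9% and Stat2 above 45.4%.

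Stat5b, Stat5a and Stat3 lie side by side on chromosome 11, between 100780731 and 100939540. Stat5a and Stat5b encode near copies that both serve IL-3, and they point away from each other with 8626 bases between the annotated genes. Of the 50-base windows of the longest Stat5a coding transcript, 15.8% also occurred in Stat5b transcripts, and 11.8% of those of Stat5b occurred in Stat5a, so that reads could be split between them. The ratio of Stat5a to Stat5b FPKM was 1.17 and 1.55 and is uncertain for that reason. Stat5a and Stat3 run towards each other and overlap by 72 bases, and the table gives them the same span, 100859351 to 100939540. Without strand in the counting, which no source used here states, reads from the overlap cannot be assigned to either gene.

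The bases before the start of Stat2 are shown because Stat2 alone among the members held a match to the element that its own complex with IRF9 binds. They come from RefSeq on GRCm38.p6. Capitals mark a match to the core of the interferon-stimulated response element (GAAA, any pair of bases, GAAA), read on the opposite strand, and 2 CCAAT boxes.
Stat2, chr10:128270248-128270497, plus strand: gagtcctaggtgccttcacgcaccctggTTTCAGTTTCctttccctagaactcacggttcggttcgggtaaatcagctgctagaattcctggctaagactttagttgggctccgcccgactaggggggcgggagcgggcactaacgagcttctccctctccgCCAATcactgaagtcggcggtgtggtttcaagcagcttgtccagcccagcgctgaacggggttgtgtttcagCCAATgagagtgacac
The match to this core was found in the Stat2 window alone among the 11 windows of the members, against 2.98% of all promoter windows. Of 12 measured target genes of the complex that STAT2 forms with IRF9, 4 rose, none fell and 8 were not called. Oas2, which makes the second messenger of an antiviral RNase, rose from 2.67 to 11.6 FPKM with q = 0.00161, and Ifit1, an inhibitor of viral RNA translation, from 1.40 to 4.61 FPKM with the same q in the authors' deposited table. Oasl1 rose from 5.77 to 13.9 FPKM and Oasl2 from 0.919 to 2.97 FPKM. The list had a median log2 ratio of 0.31, and Bst2, the most abundant of its genes that was not called, was at 50.2 and 65.1 FPKM. Stat2 itself, at 12.5 and 12.0 FPKM, and its partner Irf9, at 26.8 and 25.5 FPKM, were not called. The row of Irf9 carries a further gene identifier, so that its level may not belong to Irf9 alone. When the adjustment covered all rows of the table, Oasl1 had an adjusted p of 0.0624 and was no longer called. With at least 1 FPKM required in both groups and a new adjustment, which leaves out Oasl2, 2 genes of the list were called.

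**Figure D4:**
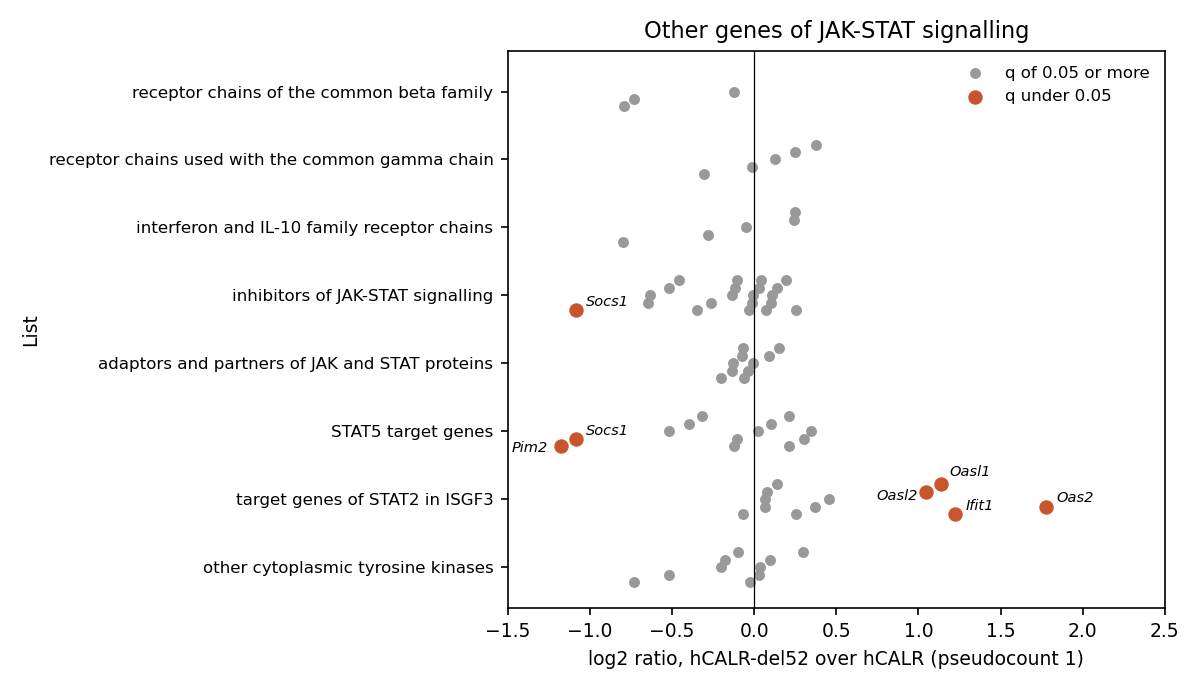
Log2 ratio of hCALR-del52 over hCALR (pseudocount 1) for other genes of JAK-STAT signalling in lists with at least 3 measured genes, with 1 point per gene, grey at q of 0.05 or more and orange at q under 0.05; the vertical offset within a list only separates points. Socs1 and Pim2 lie to the left and 4 interferon target genes lie to the right. The drawn lists of receptor chains, adaptors and other tyrosine kinases hold no called gene, and receptor lists that are not drawn are outside this statement.

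The other genes of the pathway were taken from 10 lists with 107 genes besides the members, of which 77 had a row. Of these 77 genes 5 rose and 2 fell (9.09%, against 1.84% of all rows), and their median log2 ratio was -0.01. The lists were chosen with results of these data known, so that this share is no independent evidence.

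No measured receptor chain of the common beta family was called by the Cuffdiff test, and 1 of 3 had an unadjusted p under 0.05. The chain that binds IL-3, Il3ra, was at 40.2 and 36.9 FPKM, and the signalling chain Csf2rb, which carries JAK2, was at 438 and 263 FPKM with q = 0.50. Its near copy Csf2rb2 was at 325 and 187 FPKM with q = 0.28. All 3 lay below 0, with a median log2 ratio of -0.73. The common gamma chain and the measured chains used with it were not called either. Il2rg, the common gamma chain, was at 63.6 and 51.3 FPKM, Il4ra at 8.57 and 11.4 FPKM and Il15ra at 7.63 and 7.53 FPKM. None of the 5 measured chains of this list had an unadjusted p under 0.05, and their median log2 ratio was 0.12. Ifngr1, the interferon gamma receptor chain that binds JAK1, was at 156 and 88.9 FPKM with p = 0.011 and q = 0.14 in the authors' deposited table. It was the 1 chain of 5 in the interferon and IL-10 family with an unadjusted p under 0.05, and the median log2 ratio of that list was -0.05. Il10rb was at 32.1 and 38.3 FPKM and Ifnar1 at 11.5 and 11.1 FPKM. The rows of Il10rb and Il2rg carry further gene identifiers, so that their levels may not belong to these genes alone. Of 7 listed receptor chains related to gp130 or used with it, 2 had rows. Il27ra was at 12.3 and 12.4 FPKM and Lepr at 1.35 and 0.839 FPKM, and neither was called or had an unadjusted p under 0.05. Their median log2 ratio was -0.17. Of the receptors that act as pairs of 1 chain with JAK2, Epor, the erythropoietin receptor, was at 9.12 and 7.45 FPKM and was not called. Epor does not stand for that list, whose other receptors are not reported here.

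Of 21 measured inhibitors of the pathway, Socs1 fell and 20 were not called, with a median log2 ratio of -0.03. Socs1, whose protein blocks the kinase domain of JAK proteins, went from 5.16 to 1.90 FPKM with q = 0.00665 in the authors' deposited table, a 2.72-fold difference. Ptpn6, which encodes the phosphatase SHP-1 that acts on JAK proteins, was at 500.1 and 322 FPKM with q = 0.82. Ptprc, the phosphatase CD45, was at 83.1 and 60.1 FPKM and Ptpn2 at 31.4 and 30.8 FPKM. None of 10 adaptors and partners was called or had an unadjusted p under 0.05, and their median log2 ratio was -0.07. Grb2, the adaptor that links receptors to RAS, was at 151 and 143 FPKM, and Shc1, whose row carries a further gene identifier, at 69.9 and 60.7 FPKM.

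Of 13 measured STAT5 target genes, Socs1 and Pim2 fell and 11 were not called, with a median log2 ratio of -0.10. The kinase gene Pim2 went from 20.2 to 8.38 FPKM with q = 0.0326, and had an adjusted p of 0.0973, no longer called, when the adjustment covered all rows. Pim1 was at 269 and 215 FPKM, Myc at 223 and 227 FPKM and Id1 at 112 and 143 FPKM. None of 10 other cytoplasmic tyrosine kinases was called by the Cuffdiff test, while 2 had an unadjusted p under 0.05, and their median log2 ratio was -0.06. Tec, a kinase of B cell and cytokine receptor signalling named here after its value was seen, was at 27.5 and 16.2 FPKM with q = 0.0704. Btk was at 78.2 and 67.8 FPKM, Csk at 69.2 and 70.5 FPKM and Fes at 51.5 and 35.6 FPKM.

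No other row around Jak1 was called. Of the 3 rows on each side, Ak4, an adenylate kinase gene 154 kb away, was at 55.1 and 39.0 FPKM with q = 0.71. Dnajc6, which encodes the clathrin uncoating factor auxilin, was at 32.2 and 33.7 FPKM, the receptor kinase gene Ror1 at 11.3 and 12.3 FPKM, Itgb3bp at 27.7 and 28.7 FPKM and Gm10576 at 5.42 and 4.54 FPKM. Within 5 Mb on each side, none of 27 other rows was called or had an unadjusted p under 0.05, and their median log2 ratio was 0.0040. Around all 9 members, none of the 42 neighbouring rows that are not members was called by the Cuffdiff test, and none had an unadjusted p under 0.05.

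**Figure D5:**
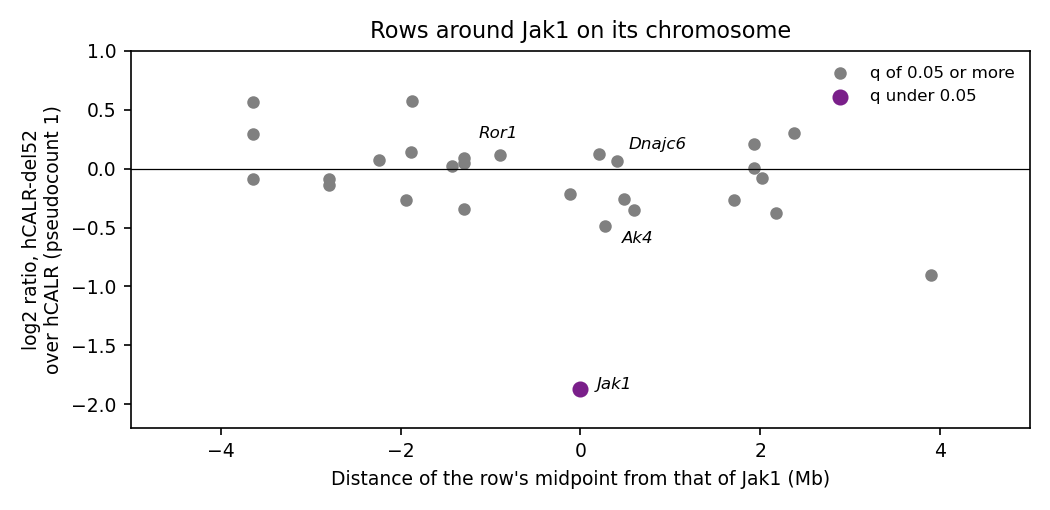
Log2 ratio of hCALR-del52 over hCALR (pseudocount 1) for the rows within 5 Mb of Jak1, against the distance of each row's midpoint from that of Jak1 in Mb. Jak1 lies at -1.87 and is the 1 called row, while the other 27 rows lie between -0.90 and 0.57.

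The genes whose pair of group values lay nearest to that of Jak1, by Euclidean distance over the 2 values on the log2(FPKM + 1) scale, were Pik3c2g, Acin1 and Gm17604. Pik3c2g, a class II phosphoinositide 3-kinase gene on chromosome 6, fell from 536 to 155 FPKM with q = 0.00161 in the authors' deposited table, a 3.46-fold difference at a distance of 0.14. Acin1, which encodes a nuclear protein of chromatin condensation and splicing, was at 413 and 146 FPKM with q = 0.15, at a distance of 0.33. Gm17604 was at 339 and 186 FPKM, at a distance of 0.72, and was not called. The likeness rests on 2 group values, by which these genes were chosen, so that levels and differences near those of Jak1 follow from the choice.

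Markers of other blood cells differed between the groups beside the fall of Jak1. Of 7 measured erythroid markers 5 rose and none was called lower, and the summed FPKM of all 7 was 146 and 768. In hCALR-del52 cells that sum came mostly from a few of the called genes, so that it does not describe the list evenly. Over all rows 0.872% were called higher and 0.967% lower. Klf1, at 61.8 and 77.4 FPKM, and Epb4.2, at 15.9 and 12.6 FPKM, were the 2 not called. With at least 1 FPKM required in both groups, 3 erythroid markers were called. Of 7 granulocyte and monocyte markers 5 fell and 1 rose, with sums of 136 and 51.3 FPKM. Of 3 mast cell markers the protease genes Cpa3, at 176 and 54.2 FPKM, and Cma1, at 17.96 and 6.86 FPKM, fell. The transcription factor gene Gata2, at 368 and 448 FPKM, was not called and makes up most of the sum of that list, 562 and 509 FPKM. Of 4 megakaryocyte markers 1 rose, and the 4 summed to 237 and 260 FPKM, mostly from Itga2b, not called at 218 and 210 FPKM. Of 7 T and NK cell markers Cd3g alone had a row and rose (1.29 and 25.1 FPKM). Outside this list, the T cell receptor genes Trbv13-2 and Tcrg-C1 went the other way. Trbv13-2 was called at 433 and 28.4 FPKM, and Tcrg-C1, at 20047 and 830 FPKM, was not. Cd3g thus does not stand for T cell genes as a whole, and other T cell receptor rows were not surveyed here. None of 6 fibroblast and stromal markers had a row. These genes were measured in a cell line, and whether cells of such types were present was not tested. The relation of these markers to the fall of Jak1 was not tested either. In bulk RNA, fewer cells that express a gene and less RNA per cell cannot be told apart.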

How the data were processed

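RNA of Ba/F3 cells with hCALR or hCALR-del52, 3 replicates each, was sequenced, and groups were taken from the sample titles. The submitters' processing notes name mm10, TopHat2 2.0.9, Bowtie2 2.1.0 and Cuffdiff 2.1.1. Per the file headers, genes are those of Ensembl, and the authors took out lowly expressed genes and genes that varied strongly. The deposited FPKM are 1 value per group. The log2 fold change, the test statistic (a score), the p-value and the q-value are also the authors' own, per the file headers. P-values measure the spread between samples that may be technical replicates.

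Computed here, in Python 3.11.15 with pandas 2.3.3, were ratios, log2 ratios (pseudocount 1), family shares, list counts and a Benjamini-Hochberg adjustment over all rows, which was checked on simulated data. Where a symbol repeated, the row of highest mean FPKM stood for it. The table counts starts from 0, since 41.2% of 10772 rows matched the GENCODE M21 gene start after 1 was added and 1.04% without, so 1 was added. Promoters are RefSeq sequences, which matched all 9 members. The smallest deposited q is 0.00161 and the smallest adjusted p over these rows is 0.00548, so that the deposited q covers another set of rows.

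Members and lists were chosen with earlier results of these data known. Named genes are all members, called list genes, list genes with the highest FPKM, and neighbours and nearest genes of called members. Others were named after their values were seen. Some items are not reported here, while counts include them. Alternatives were other thresholds and adjustments, a minimum FPKM, other pseudocounts, centring and the choice of row.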

Additional observations from a re-analysis of the deposited data

How the results depend on the processing

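No paired analysis was possible because each group has a single FPKM per gene. No replicate could be left out and no replicate block fitted, since both need values per sample. Jak1 stayed the 1 called member with an adjustment over all rows, and with at least 1 FPKM in both groups and a new adjustment. It also stayed so at a q threshold of 0.01 and with a minimum absolute log2 fold change of 1. The deposited q of 0.00665 and log2 fold change of -1.88 of Jak1 fixed the outcome at that threshold and that minimum. The choice of row for a repeated symbol could not bear on the members, which have 1 row each. The Cuffdiff p of Jak1 adjusted over all rows was 0.0213. Bonferroni adjustment called 0 members, 0 rows of the table and 0 other pathway genes, which the smallest p of the table, 5e-05 over 12615 rows, fixes. With at least 1 FPKM in both groups and a new adjustment, 93 rows were called in place of 232 and 3 pathway genes in place of 7, and the cause was not tested. Over all rows the adjustment called 172 rows and 5 pathway genes. A pseudocount cannot turn the sign of a ratio, and centring moved every log2 ratio by 0.01, so that neither says anything about the direction of the members. Depth could not be assessed without values per sample.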
